A study of Mus musculus with 8 samples.

Results

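Xenobiotic metabolism genes of the gut were followed across 8 Peyer's patch arrays of mice given ovalbumin (OVA, the main protein of egg white and a common test allergen) or saline. The list holds 10 genes: the cytochrome P450 genes Cyp2c55, Cyp2c29, Cyp2b10, Cyp3a13 and Cyp2j9, the P450 reductase gene Por, the conjugating enzyme genes Sult1a1 and Gstm1, and the receptor genes Nr1i2 and Nr1i3. Members were the probe sets annotated to exactly 1 of these genes, which gave 15 of the 45101 probe sets on the array and 9 of the 10 genes. No probe set names Por alone, and it has no value here. All 15 probe sets passed the filter on low intensity, set at 11.9. The list was chosen by, among other things, the intensities of these same arrays compared between OVA and control, so the differences of the members between OVA and control are given with their errors as a description and without a test.

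The mice were of the inbred strain C3H/Hej, whose Tlr4 gene is defective, and were 6 weeks old when gavage began. Each was gavaged for 28 days, with OVA at 40 mg/kg per day or with normal saline, the vehicle. The groups were female control (n = 1, mouse 7), male control (n = 1, mouse 8), female OVA (n = 2, mice 2 and 12) and male OVA (n = 4, mice 1, 5, 8 and 13). The labels give the tissue as Peyer's patches, which are lymphoid tissue set in the wall of the small intestine and covered by gut epithelium. Mouse numbers differ within each group, and the number 8 occurs in both male groups. P-values set differences against the spread between these arrays, which with 1 control per sex comes mainly from the OVA arrays.

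Foreign compounds and bile acids in gut and liver are sensed by the nuclear receptors PXR (encoded by Nr1i2) and CAR (Nr1i3), which pair with RXR and switch on genes for oxidation, conjugation and export. Microsomal P450 enzymes oxidise the compound with electrons passed on by the reductase Por, and sulfotransferases and glutathione transferases then attach a polar group. In the intestine these enzymes are mainly found in absorptive enterocytes, with more in the proximal small intestine than in the ileum for many of them.

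The promoters of 3 P450 members are shown because their genes gave the widest spread between arrays among the P450 members. Cyp2c55 and Cyp2c29 lie on chromosome 19 and Cyp2b10, the classic target gene of CAR, on chromosome 7. The windows are RefSeq sequences of build GRCm38.p6, 300 bases around the annotated start, at chr19:39006769-39007068 for Cyp2c55, chr19:39286835-39287134 for Cyp2c29 and chr7:25897408-25897707 for Cyp2b10, all on the plus strand. Capitals mark the nuclear receptor hexamer AGGTCA and the TATA box TATAAA where either occurs on either strand.
Cyp2c55: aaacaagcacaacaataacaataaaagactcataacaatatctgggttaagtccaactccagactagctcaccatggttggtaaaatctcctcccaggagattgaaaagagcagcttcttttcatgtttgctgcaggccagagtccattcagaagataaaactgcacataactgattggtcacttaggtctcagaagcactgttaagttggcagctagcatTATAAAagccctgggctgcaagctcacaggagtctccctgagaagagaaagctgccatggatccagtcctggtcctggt
Cyp2c29: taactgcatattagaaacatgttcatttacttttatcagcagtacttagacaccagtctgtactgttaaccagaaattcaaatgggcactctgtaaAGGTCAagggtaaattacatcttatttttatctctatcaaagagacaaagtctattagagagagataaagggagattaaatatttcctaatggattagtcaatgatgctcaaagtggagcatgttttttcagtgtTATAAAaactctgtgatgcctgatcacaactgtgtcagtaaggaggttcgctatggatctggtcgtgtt
Cyp2b10: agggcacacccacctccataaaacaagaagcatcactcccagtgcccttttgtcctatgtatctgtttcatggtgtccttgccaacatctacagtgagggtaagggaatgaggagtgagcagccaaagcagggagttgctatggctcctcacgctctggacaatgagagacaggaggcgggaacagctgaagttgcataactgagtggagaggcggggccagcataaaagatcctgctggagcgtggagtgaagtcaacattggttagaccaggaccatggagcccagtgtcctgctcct
The Cyp2c55 window holds TATAAA from base 222 of the window and no AGGTCA. In the Cyp2c29 window AGGTCA begins at base 97 and TATAAA at base 232, and the matches do not overlap. Neither motif is in the Cyp2b10 window. Over the 10 member windows AGGTCA was in 2 (Cyp2c29 and Gstm1) and TATAAA in 3 (Cyp2c55, Cyp2c29 and Gstm1), while 16.3% and 13.6% of all 32851 RefSeq windows hold them. TGACNNNGC, the core of the antioxidant response element, was in 0 of the 10 windows and in 12.4% of all windows. A direct repeat of the hexamer with 4 bases between, which contains it on each side, was in 0 of the 10 and in 0.0152% of all windows. These matches describe the letters of these windows and no binding was measured.

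Array medians lay between 11.6 and 12.3 and the trimmed mean intensities between 65.1 and 68.2. The 3'/5' signal ratios were 1.29 to 1.58 for Actb and 0.834 to 1.00 for Gapdh. In the limma fit over 22518 probe sets no probe set differed between OVA and control (0% called, smallest adjusted p = 0.21), and 2524 (11.2%) had an unadjusted p below 0.05. Fits with trend and robust variance or with array weights also called 0. The tissue label and the extraction text of the labels differ, since the latter speaks of the parietal cortex of a patient. On the arrays 15 of 15 B cell markers measured and all 16 pan-epithelial markers passed the filter, against 3 of 14 measured markers of neurons and glia. Markers of exocrine pancreas summed to 10642 on male OVA 13, where their mean log2 level was 9.97, and this level was 4.24 to 6.14 on the other 7 arrays. Ileum markers were low on male OVA 5 and 8. Fabp6, the ileal bile acid binding protein, read 21.2 and 21.7 there and 1474 to 3297 on the other 6 arrays. The Cyp2c55 difference between OVA and control and some further results are therefore also given without these arrays.

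Cyp2c55, a P450 that hydroxylates arachidonic acid, had the largest difference between OVA and control among the 9 measured members and was the 1 member with all 6 OVA arrays below both controls. Its intensity was 337 on female control 7 and 519 on male control 8. The female OVA arrays read 66.1 and 71.9, and the male OVA arrays 1, 5, 8 and 13 read 80.2, 326, 180.0 and 291. Controls and OVA arrays thus did not overlap, although male OVA 5 lay just under female control 7. The lowest values were both female OVA arrays and male OVA 1.

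Cyp2c55 averaged 428 ± 129 (SD, n = 2) over the controls and 169 ± 116 (SD, n = 6) over the OVA arrays, and the fitted OVA minus control difference was -1.77 ± 0.46 (SE) on the log2(intensity + 4.88) scale. Within females the difference was -2.21 ± 0.71 and within males -1.40 ± 0.65, each against 1 control. Over all genes tested 558 of 11988 (4.65%) had every OVA array below both controls, and the members' 1 of 9 is read against that share only as a description. Leaving out both male OVA 5 and male OVA 8 gave -1.97, and leaving out the pancreas-marked male OVA 13 gave -1.88. Set relative to the pan-epithelial, enterocyte and proximal small intestine marker levels of each array, the Cyp2c55 difference was -1.50, -1.53 and -1.70. Markers of other cell types also differed in value. All 16 pan-epithelial markers had lower values with OVA (median -0.25 log2, summed intensity 29909 to 30929 in controls and 20512 to 30630 with OVA), as did all 11 goblet cell markers past the filter. All 15 B cell markers past the filter (median 0.56, summed intensity 4288 to 4924 in controls and 4562 to 9478 with OVA) and 11 of 12 T cell markers had higher values. None of these markers passed the adjusted threshold, and the B cell level had r = -0.60 with Cyp2c55 over the 8 arrays. The part of cell makeup in the Cyp2c55 values was not tested. In such whole-tissue RNA, fewer cells of a type and less RNA per cell cannot be told apart.

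**Figure D1:**
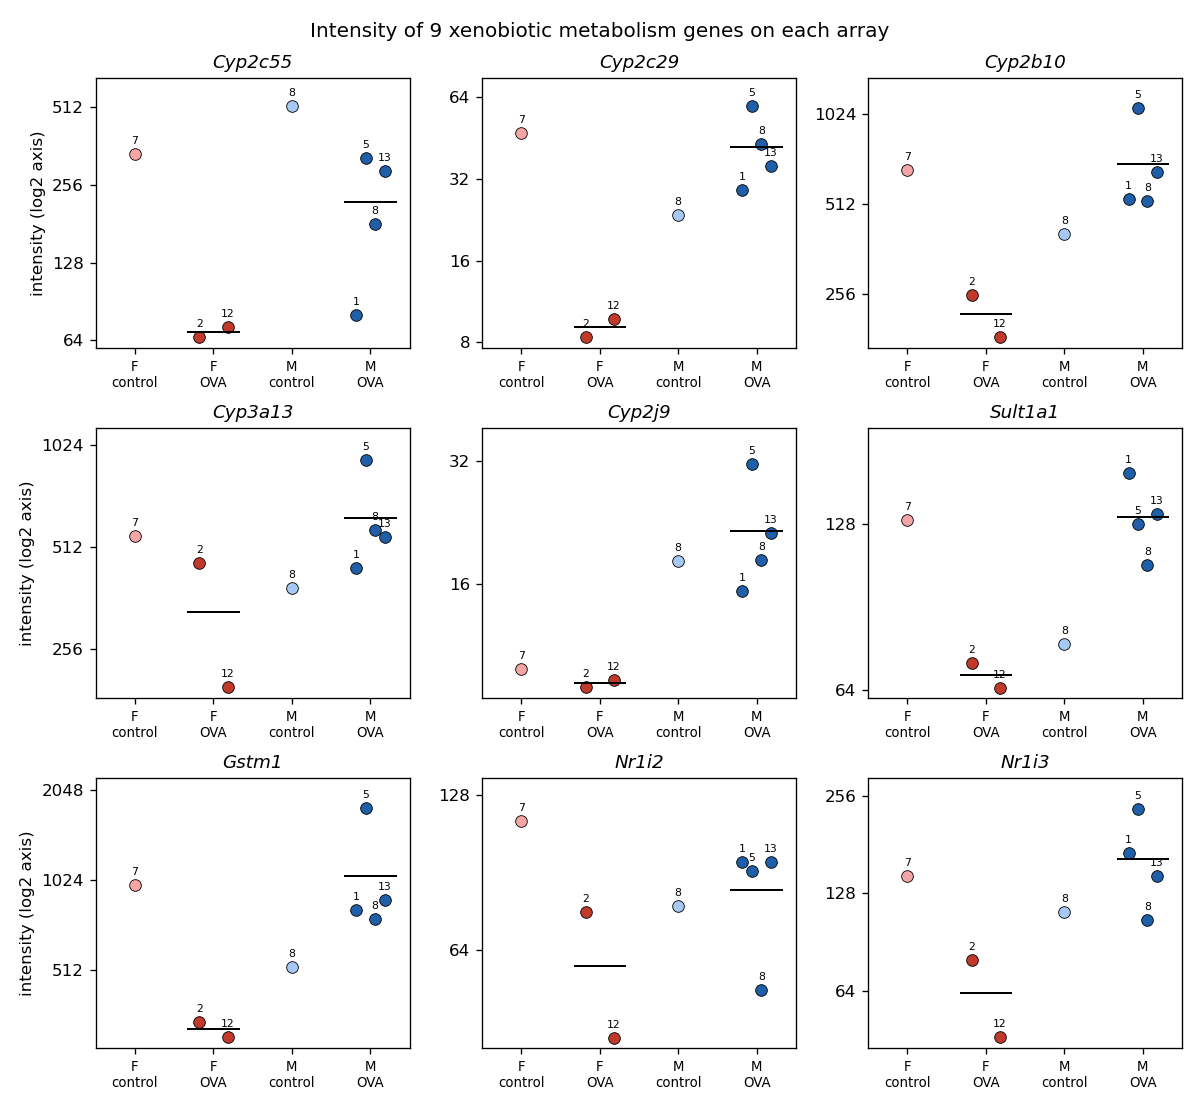
Intensity of the representative probe set of each of the 9 measured members on the 8 arrays (log axis), 1 panel per gene and 1 point per array, coloured by group, with the mouse number beside each point and a bar at the mean of each OVA group. Cyp2c55 has all 6 OVA points below both controls, and in most other panels the female OVA points are the lowest.

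Cyp2c29, in mouse liver a CAR-induced enzyme that makes epoxides from arachidonic acid, was near the filter on the female OVA arrays and had its OVA values on opposite sides of the control in the 2 sexes. The female control read 47.1 and the female OVA arrays 8.38 and 9.77. The male control read 23.6 and the male OVA arrays 1, 5, 8 and 13 read 29.3, 59.3, 43.0 and 35.8. Both female OVA arrays lay below every other array, while all 4 male OVA arrays lay above the male control. Controls averaged 35.4 ± 16.6 (SD, n = 2) and OVA arrays 30.9 ± 19.6 (SD, n = 6), a fitted difference of -0.50 ± 0.48 (SE, log2). It was -1.90 ± 0.33 within females and 0.67 ± 0.30 within males.

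Cyp2b10, the member most used as a readout of CAR activity in mouse liver, had the same highest array and the same pair of lowest arrays on its brightest probe set. The female control read 667 and the female OVA arrays 253 and 183. The male control read 405 and the male OVA arrays 531, 1074, 526 and 658. Male OVA 5 was that highest array, and the female OVA arrays were the lowest pair, while the other arrays took a different order from Cyp2c29. Controls averaged 536 ± 186 (SD, n = 2) and OVA arrays 538 ± 319 (SD, n = 6), with a fitted difference of -0.34 ± 0.48 (SE, log2). The other 2 probe sets of Cyp2b10 gave -0.41 and -0.18.

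Cyp3a13, a Cyp3a enzyme of mouse intestine and liver, read 551 on the female control, 459 and 198 on the female OVA arrays, 387 on the male control, and 443, 923, 575 and 548 on the male OVA arrays. The groups overlapped here, with female OVA 2 above the male control and female OVA 12 the lowest of all 8. Its fitted OVA minus control difference was -0.05 ± 0.42 (SE, log2), smaller than its error. Cyp2j9, which in mouse brain hydroxylates arachidonic acid, was below the filter's intensity on all 3 female arrays and above it on all 5 male arrays, at 9.92 on the female control, 8.97 and 9.37 on the female OVA arrays, 18.3 on the male control, and 15.4, 31.4, 18.3 and 21.3 on the male OVA arrays. All 3 female arrays of Cyp2j9 lay below all 5 male arrays, whatever the treatment. The share of all genes with this separation was not counted, so it is a description only. Its OVA minus control difference was 0.05 ± 0.20, the 1 member value above 0, and its female minus male difference was -0.82 ± 0.18 (SE, log2; adjusted p = 0.901 in the limma fit).

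Of the conjugating enzymes, Gstm1, a mu-class glutathione transferase, also had its OVA values on opposite sides of the control in the 2 sexes. The female control read 986 and the female OVA arrays 343 and 307. The male control read 524 and the male OVA arrays 812, 1779, 759 and 881. Both female OVA arrays were below all others and the single highest value was again male OVA 5. Controls averaged 755 ± 327 (SD, n = 2) and OVA arrays 813 ± 533 (SD, n = 6), with a fitted difference of -0.22 ± 0.52 (SE, log2). Its 4 probe sets gave fitted differences from -0.22 to 0.16, and probe sets of such a near-identical gene family may share signal between members.

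Sult1a1, the phenol sulfotransferase, read 130.0 on the female control, 71.6 and 64.6 on the female OVA arrays, 77.7 on the male control, and 158, 128, 108 and 133 on the male OVA arrays. Its values separated female OVA from the rest, and its highest array was male OVA 1, not male OVA 5. Controls averaged 104 ± 37.0 (SD, n = 2) and OVA arrays 111 ± 36.7 (SD, n = 6), and the fitted difference was -0.01 ± 0.31 (SE, log2).

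Of the receptor genes, Nr1i2, encoding PXR, read 114 on the female control, 76.1 and 43.3 on the female OVA arrays, 77.9 on the male control, and 95.1, 91.2, 53.7 and 95.0 on the male OVA arrays. OVA and control arrays overlapped, with male OVA 8 and female OVA 12 the 2 lowest. The fitted OVA minus control difference was -0.39 ± 0.30 (SE, log2), and the second probe set gave -0.25. Nr1i3, encoding CAR, read 145 on the female control, 79.7 and 46.0 on the female OVA arrays, 112 on the male control, and 170.2, 232, 106 and 145 on the male OVA arrays. Female OVA arrays were the 2 lowest and male OVA 5 the highest, with a fitted difference of -0.28 ± 0.40 (SE, log2).

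Across the members the lowest arrays were mostly female OVA and the highest mostly male OVA 5. Both female OVA arrays were the 2 lowest of the 8 in 7 of 9 members, against 933 of 11988 genes tested (7.78%), and male OVA 5 was the highest in 6 of 9, against 1701 genes (14.2%). Both female OVA arrays lay below all 4 male OVA arrays in 7 members, against 1308 genes (10.9%). Both lay below the female control in all 9, against 3855 genes (32.2%). Each of these counts includes Cyp2c29 and Cyp2j9, which were below the filter's intensity on both female OVA arrays and passed it through their higher arrays. Since the arrays share these animals across genes, such counts describe 8 arrays and not 9 independent observations.

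**Figure D2:**
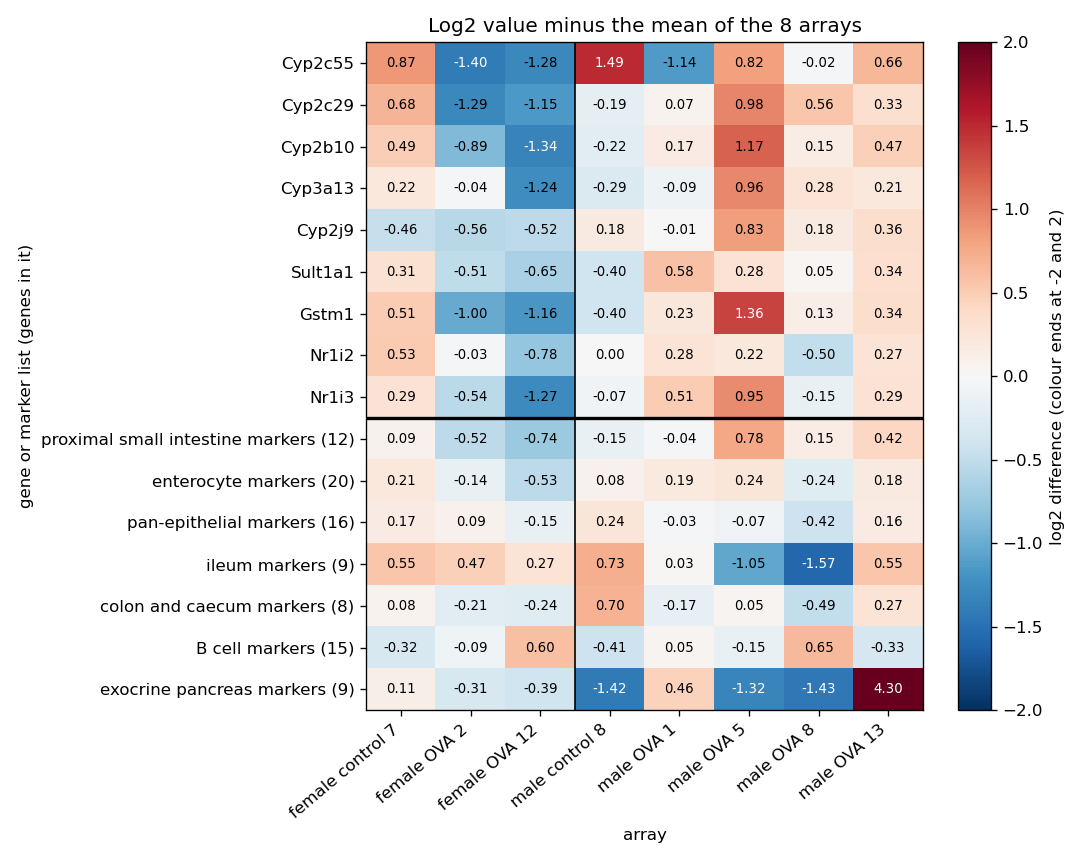
Log2 level of each member minus its mean over the 8 arrays, with members in rows and arrays in columns, and the mean levels of marker lists on the same scale below. Blue is below and red above the mean of the arrays. Female OVA 2 and 12 are below it in all 9 members and male OVA 5 above it, and the ileum markers have their lowest values on male OVA 5 and 8.

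The female minus male difference was below 0 in all 9 members, with a median of -0.85 log2 beside -0.01 over all genes. It ran from -1.20 ± 0.41 for Cyp2c55 and -0.97 ± 0.42 for Cyp2b10 to -0.20 ± 0.27 (SE) for Nr1i2. No member passed the adjusted threshold of the limma fit (smallest adjusted p = 0.901), in which 12 of 22518 probe sets did (0.0533%). At an unadjusted p below 0.05 in that fit there were 5 of the 9 genes. By probe set there were 6 of the 15 of the members, beside 5.41% of all probe sets. Among the 5 genes were Cyp2j9, below the filter's intensity on all 3 female arrays, and Cyp2c29, below it on both female OVA arrays. They passed the filter through their higher arrays, so these counts are a description only. Female OVA arrays were 2 of the 3 female arrays.

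In 5 members the OVA arrays lay on opposite sides of the control in the 2 sexes. Both female OVA arrays were below the female control and all 4 male OVA arrays above the male control for Cyp2c29, Cyp2b10, Cyp3a13, Sult1a1 and Gstm1, a pattern of 601 of 11988 genes tested (5.01%). The OVA effect in males minus that in females was 2.57 ± 0.45 (SE, log2) for Cyp2c29, 2.50 ± 0.63 for Gstm1, 2.32 ± 0.57 for Cyp2b10, 1.60 ± 0.29 for Sult1a1 and 1.48 ± 0.72 for Cyp3a13. The Cyp2c29 value turns on female OVA intensities below the filter's 11.9, and it was 3.01 with a pseudocount of 1 and 2.06 with the median as pseudocount. The difference was above 0 in all 9 members, with a median of 1.60 beside -0.05 over all genes, and lowest for Cyp2j9 at 0.24 ± 0.42. None passed the adjusted threshold in the limma fit (smallest adjusted p = 0.485), where 0 of 22518 probe sets did and 1846 (8.20%) had an unadjusted p below 0.05. Each sex had 1 control, so this difference depends on 2 single arrays.

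**Figure D3:**
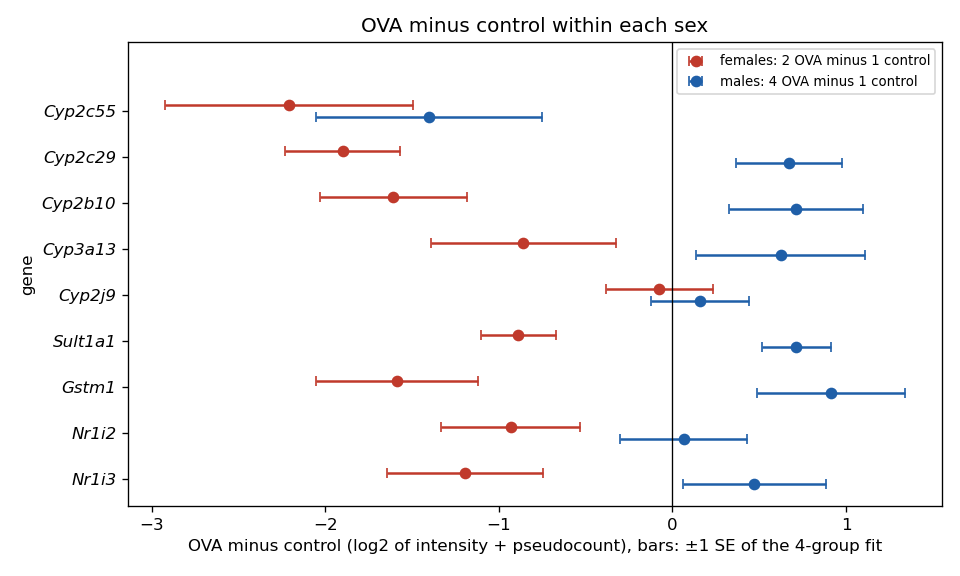
Fitted OVA minus control difference of each member within females (2 OVA arrays, 1 control) and within males (4 OVA arrays, 1 control), in log2 units, with bars of 1 standard error either side. Cyp2c55 is below 0 in both sexes, while all other members lie below 0 in females and above 0 in males. Cyp2j9 in both sexes and Nr1i2 in males lie within 1 standard error of 0.

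The members also resembled each other over the arrays. Correlations over the 8 arrays were 0.99 for Cyp2b10 with Gstm1, 0.95 for Cyp2c29 with Cyp2b10 and 0.95 for Cyp2b10 with Nr1i3, and lowest for Cyp2j9 with Nr1i2 at 0.24. Cyp2c55 stood furthest from the shared order, with r = 0.61 to the mean of the other members, against 0.99 for Cyp2b10 and 0.95 for Gstm1. These correlations are descriptions over 8 arrays that share their scaling and their animals.

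The mean level of the members other than Cyp2c55 moved with markers of the proximal small intestine, at r = 0.96 over 8 arrays, and with enterocyte markers, at r = 0.84. Pan-epithelial markers gave r = 0.07 and ileum markers -0.39. For Cyp2c55 these values were 0.65, 0.59, 0.39 and 0.01, and 0.73 for colon and caecum markers. All 12 proximal markers listed passed the filter, and their summed intensity was 13766 to 16813 in controls and 9704 to 21633 with OVA. The proximal markers did not all share 1 pattern. Slc40a1, the iron exporter of duodenal enterocytes, read 62.8 and 62.9 on the female OVA arrays and 691 on male OVA 5, where the controls read 170.2 and 135. Pdx1, a duodenal transcription factor, read 4.53 and 5.58 on the female OVA arrays, 71.6 on male OVA 5 and 18.9 and 13.8 on the controls. These were chosen after their values were seen, as the widest in range. Lct, the lactase gene, was instead highest on female control 7, at 1277, with 1150.5 on male OVA 5, and Cybrd1, a duodenal ferric reductase, read 33.6 on female OVA 12, above the controls at 30.8 and 24.4. The 20 enterocyte markers past the filter summed to 52754 to 60373 in controls and 39694 to 62089 with OVA, and the 9 ileum markers to 14884 to 15723 and 6191 to 15178. The part of these cells and of the gut region in the member values was not tested.

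Set relative to the proximal small intestine marker level of each array, the OVA effect in males minus that in females was 1.38 for Cyp2c29, 1.31 for Gstm1, 1.13 for Cyp2b10, 0.41 for Sult1a1, 0.29 for Cyp3a13 and 0.47 for Nr1i3. It turned below 0 for Cyp2j9 (-0.96), Cyp2c55 (-0.38) and Nr1i2 (-0.19). Set relative to pan-epithelial markers it was 2.70 for Cyp2c29, 2.64 for Gstm1 and 2.45 for Cyp2b10. Liver expresses many of the same enzymes. Of 18 hepatocyte markers listed 14 were measured and 4 passed the filter. The summed intensity of those 4 was 1835 to 1920 in controls and 1346 to 2123 with OVA. Alb, the serum albumin gene, was at 18.4 or below on every array. Of the 19 markers of colon and caecum listed 17 were measured and 8 passed the filter, and Car1 was at 4.35 or below.

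**Figure D4:**
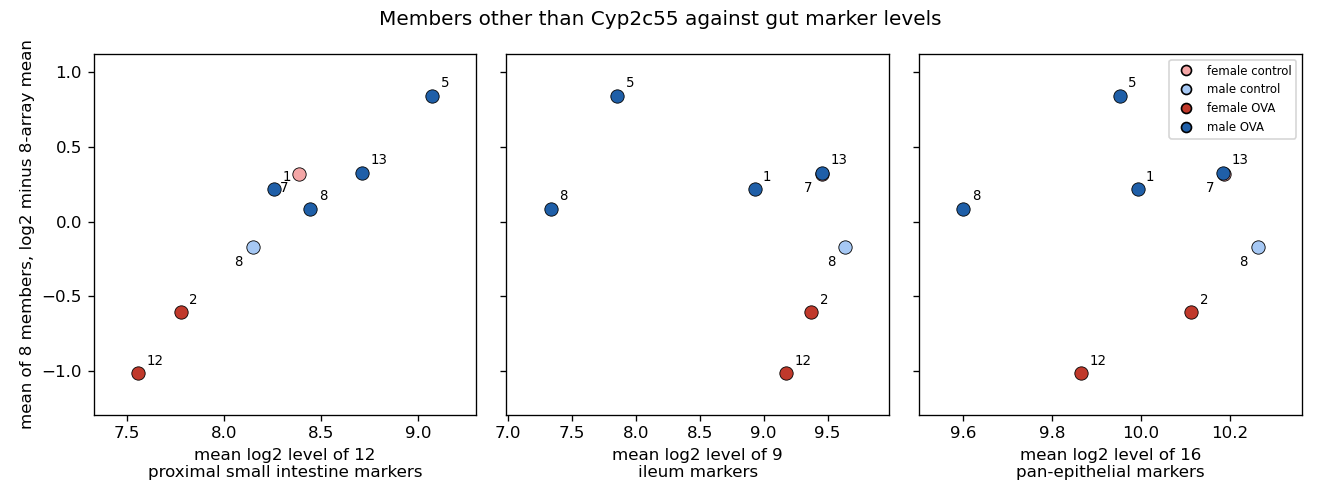
Mean log2 level of the 8 measured members other than Cyp2c55, relative to their mean over the arrays, against the mean log2 level of proximal small intestine, ileum and pan-epithelial markers, 1 point per array with its mouse number. On the proximal panel the female OVA points are furthest left and lowest, and male OVA 5 is furthest right and highest. Male OVA 8 lies there to the right of female control 7 and male OVA 1 but is lower than both. The ileum panel places male OVA 5 and 8 to the left of the others.

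The wider pathway was followed in lists of 291 other genes, of which 168 had a probe set past the filter. None passed the adjusted threshold for OVA against control (smallest adjusted p = 0.303 in the limma fit), for the sexes or for the OVA effect between sexes. Against control, 55 had a higher and 113 (67.3%) a lower value with OVA, where 46.3% of all genes tested were lower. The median was -0.09 log2, beside 0.02 over all genes. All OVA arrays lay below both controls in 5 (2.98%) and above in 4 (2.38%), where 4.65% and 7.99% of all genes did. Females had the lower value in 138 (82.1%), beside 54.0% of all genes. In 42 (25%) the female OVA arrays lay below and the male OVA arrays above their control, beside 5.01% of all genes.

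Of 57 other P450 genes of families 1 to 3 listed, 37 had a probe set naming them alone. Of these 12 passed the filter, 5 with a higher and 7 with a lower value. In 2 of the 12 the OVA arrays lay on opposite sides of the control by sex. Cyp1a1, the target gene of the aryl hydrocarbon receptor, read 22.3 and 16.2 in controls and 25.4 to 116 with OVA, all 6 above both controls, a difference of 1.32 ± 0.35 (SE, log2; adjusted p = 0.375 in the limma fit). Cyp1b1, another target of that receptor, had a difference of 0.61 ± 0.26. Cyp3a11, a main PXR target in mouse gut and liver, had 5748 on the female control and 3506 and 2726 on the female OVA arrays, with 4028 on the male control and 4687 to 6270 on the male OVA arrays. Its OVA values thus lay on opposite sides of the control in the 2 sexes, as for Cyp2b10 and Gstm1, and its OVA minus control difference was -0.18 ± 0.27 (SE, log2).

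Genes of conjugation gave counts that differed by family. Of 21 other glutathione transferase genes past the filter 14 were lower, and 10 had the OVA arrays on opposite sides of the control by sex, Gstm3 among them. Hpgds, the haematopoietic prostaglandin D synthase of this family, had all 6 OVA arrays above both controls, with 26.5 and 26.3 in controls and 38.1 to 48.9 with OVA (0.58 ± 0.11 SE, log2; adjusted p = 0.303 in the limma fit). Of 6 other genes of sulfonation 3 were lower, and 0 had the OVA arrays on opposite sides of the control by sex. Papss2, which makes the sulfate donor, read 290.3 and 247 on the female OVA arrays, 1194 and 1044 in controls and 974 to 2237 on the male OVA arrays. Genes of glucuronidation, which were transferases together with Ugdh and Ugp2, were lower in 7 of 8. In 2 of these 8 the OVA arrays lay on opposite sides of the control by sex.

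The known target genes of CAR and PXR, a list written with earlier results of these arrays known, gave 5 higher and 15 lower of 20 past the filter, with a median of -0.17 log2. In 15 of the 20 both female OVA arrays lay below all 4 male OVA arrays, a pattern of 10.9% of all genes. Their median OVA effect in males minus females was 1.17, beside -0.05 over all genes. Each of these 20 genes is also in another of the lists, so their counts are not separate from those of the other lists. Esterases, epoxide hydrolases, oxidases and reductases gave 10 higher and 32 lower of 42. In 18 of these the OVA arrays lay on opposite sides of the control by sex. Electron donors and haem supply gave 5 higher and 10 lower of 15. Cytochrome b5, Cyb5a, which also passes electrons to P450 enzymes, differed by -0.01 ± 0.22, and Alas1, the first enzyme of haem synthesis, by -0.27 ± 0.10 with all 6 OVA arrays below both controls. Receptors and partners gave 9 higher and 17 lower of 26, with Hnf4a, a regulator of Nr1i2 and Nr1i3 in mouse liver, at -0.47 ± 0.19. Carriers gave 9 higher and 11 lower of 20, with Abcg2, an apical exporter, at -0.62 ± 0.28 (SE, log2).

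**Figure D5:**
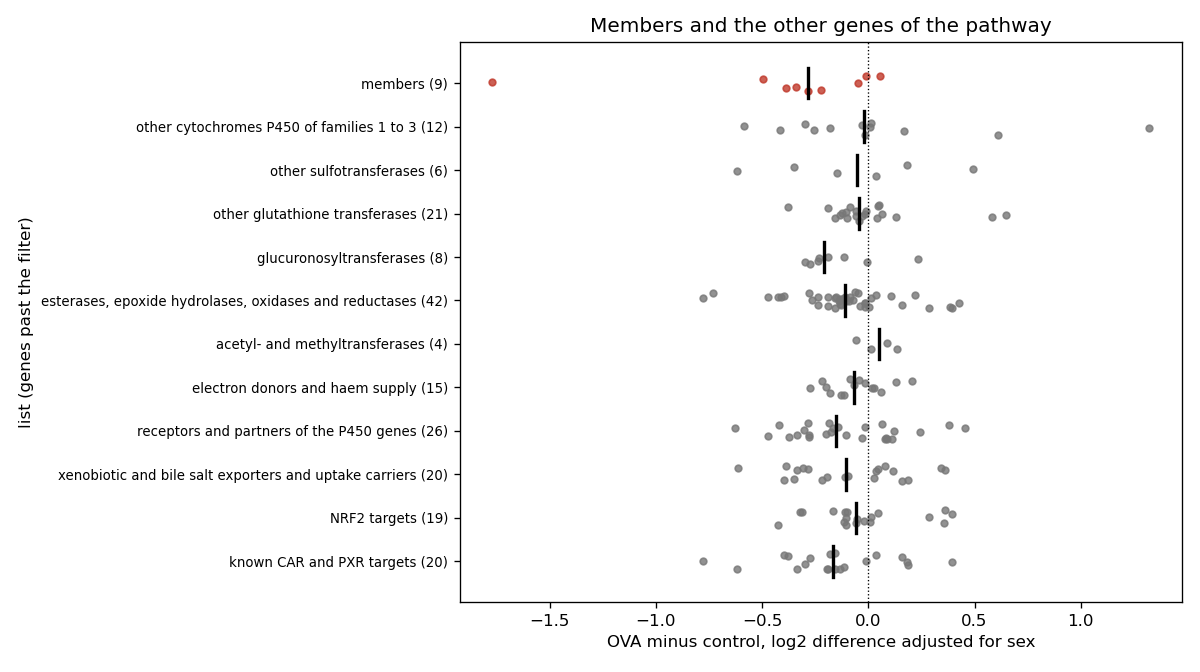
OVA minus control difference (log2) of each gene past the filter in the pathway lists, 1 point per gene and 1 row per list, with list medians as bars and a dotted line at 0. Most list medians lie below the all-gene median of 0.02, and Cyp2c55 at -1.77 is the lowest member.

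The genes whose pattern was most like the mean of the members, by Pearson correlation over the 8 arrays among genes with a range of at least 1 log2, were Adh4, Chgb and Bche at r = 0.99 and Ogdh, Retsat, Fut4, Acad11 and Gstm4 at r = 0.98. Adh4, an alcohol dehydrogenase, read 95.5 and 70.4 on the female OVA arrays, 411 on male OVA 5 and 213 to 272 on the other 5 arrays. The genes most like Cyp2c55 were Dmbt1 at r = 0.94, Slc13a1 and Atp2b1 at 0.90, Ces2a at 0.88, Ank at 0.87, Slc26a6 at 0.86 and Xdh and Abcg5 at 0.84. Slc13a1, a sulfate carrier, read 95.3 and 179 on the female OVA arrays, 402 and 793 in controls and 270 to 837 on the male OVA arrays, so its groups overlapped where those of Cyp2c55 did not.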

How the data were processed

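Biotin-labelled RNA from Peyer's patches was hybridised to 1-colour Affymetrix arrays, 1 per mouse. The authors deposited normalized probe set intensity values on a linear scale, from 1.86 to 14749. MAS5 was used, per the submitters' processing notes, but the sources used here do not give its version or scaling target. Of the 45101 probe sets, 23229 (51.5%) held values exactly equal, to the last digit deposited, on at least 2 arrays, so the step that made these values from the probes is not settled. The values were taken as deposited to log2(intensity + 4.88), the 25th percentile, without further scaling. After removal of 64 control probe sets, the 22518 above the median level entered limma 3.58.1 (lmFit, eBayes; R 4.3.3). The 8 arrays were fitted together, and two-sided p-values were adjusted by Benjamini-Hochberg with a threshold of 0.05. An additive model of treatment and sex gave the main contrasts. A model of the 4 group means gave the OVA effect between sexes and takes the spread of each single control from the rest. The fit was also run on simulated data with noise drawn separately for each probe set. Shifts shared by many genes on an array were not simulated, so the fit was not tested under them. A gene is represented by its brightest probe set naming it alone, and 34958 probe sets name 1 gene, 932 several and 9211 none.

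The members and lists were chosen with earlier results of these data known. Named genes were all members, the 3 genes of smallest p and the 2 of highest level in each list, from which some are given, and the 8 genes most like the mean of the members or Cyp2c55. Other pseudocounts, normalizations, filters and variance models were tried, and each array was left out in turn. Python 3.11.15 drew the figures. The number of arrays limits the precision.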

Additional observations from a re-analysis of the deposited data

Results flagged for a closer look

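In 5 members every female OVA array lay below the female control and every male OVA array above the male control. The OVA effect in males minus that in females was 2.57 log2 for Cyp2c29, 2.32 for Cyp2b10, 1.48 for Cyp3a13, 1.60 for Sult1a1 and 2.50 for Gstm1. None of these differences passed the adjusted threshold of the limma fit, where the smallest adjusted p of a member was 0.485, and each rests on 1 control per sex.

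Nr1i2 on male OVA 8, at an intensity of 53.7, lay far from the other 3 male OVA arrays, which read 91.2 to 95.1. The gap of male OVA 8 to the nearest was 0.926 of the range of the group on the log2 scale. This holds for the brightest probe set of Nr1i2. On its second probe set male OVA 8 was also the lowest of the group, at 48.4, but nearer to the other 3, which read 63.1 to 76.7. The 9 members were examined among the 4 male OVA arrays and among all 6 OVA arrays, 18 sets in all, and chance marks about 1 in 20 of such sets.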

How the results depend on the processing

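The Cyp2c55 difference between OVA and control kept its sign under all alternatives run and lay between -2.21 (without male control 8) and -1.40 (without female control 7). Without female control 7, which leaves the contrast within males, those of the other 8 members were all above 0, from 0.07 (Nr1i2) to 0.91 (Gstm1). Without male control 8, which leaves the contrast within females, all 8 were below 0, from -1.90 (Cyp2c29) to -0.08 (Cyp2j9). The female minus male difference of Nr1i2 was -0.47 to 0.14 without 1 array, above 0 without female OVA 12. That of Cyp3a13 ran from -0.98 without male control 8 to -0.04 without female OVA 12. That of Cyp2c29 ran from -1.70 without female control 7 to -0.66 without male OVA 5 and 8. The OVA effect in males minus that in females for Cyp3a13 was 0.89 without female OVA 12 and 2.08 without female OVA 2. Probe sets called between the sexes numbered 12, and 4 with the filter at the 75th percentile, where fewer were tested, and 9 to 13 without 1 array. The count of members with OVA arrays on opposite sides of the control by sex was 5 to 7 without 1 OVA array. Leaving out OVA arrays can only keep or raise this count, and neither control was left out, so its stability was not tested. The count was 7 without male OVA 5 and 8, an alternative chosen after the data were seen. Setting the OVA effect between sexes relative to marker lists, and OVA minus control relative to proximal small intestine markers, was also chosen then. Calls for OVA against control, for the OVA effect between sexes and for the pathway genes were 0 under each alternative run. No paired analysis was possible because the compared groups share only the number 8. With 2 controls in all, the spread of control animals within a sex is not measured.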
